A study of Saccharomyces cerevisiae with 30 samples.

Results

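Transcript levels of the yeast Saccharomyces cerevisiae were compared after about 15 h with the compound E9591, which the design text names eupolauridine-9591, and after the same time with its solvent DMSO. The comparison rests on 6 of the 30 arrays of the series, chosen by their titles: 3 arrays of cultures given E9591 and 3 of cultures given DMSO, each array from a separate culture that the labels call a biological replicate. All 6 cultures were strain S288C, haploid and of mating type alpha, for which the labels name no deletion or transgene. Both groups grew in synthetic dextrose medium without amino acids, buffered with MOPS, with shaking at 30 °C. E9591 was added at 0.053 µM, its own IC50, when cultures had reached an optical density (OD600) of 0.2, and the controls received DMSO at 0.25%. Exposure lasted 4.5 doublings, and the labels do not give the density at which the 15 h cultures were harvested. The same 3 DMSO cultures also served as controls for the compound LMT (liriodenine methiodide, 2.6 µM) at 15 h, and a separate experiment exposed cultures to E9591 or DMSO for about 4 h.

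Yeast cells that sense too little usable iron activate the transcription factors Aft1 and Aft2. Their targets, the iron regulon, reduce, capture and import iron at the cell surface and move it between compartments. The signal that Aft1 and Aft2 read comes from the making of iron-sulfur clusters in mitochondria, and many enzymes of respiration and amino acid synthesis carry such clusters. Yeast also ferments glucose first, and while glucose lasts it represses the genes for respiration, for the use of other carbon sources and for stress resistance. When glucose runs out these genes are switched on and the genes for ribosomes are turned down.

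The values are log2(intensity + 1), called levels here, and a change is the mean level with E9591 minus the mean level with DMSO, with n = 3 arrays per group. A gene was called when limma's p, adjusted by the Benjamini-Hochberg method over the 5429 genes tested, was under 0.05. Errors of changes are standard errors of that fit. Pairs of arrays within the E9591 group differed by an SD of 0.215 to 0.259 over all tested genes, and pairs within the DMSO group by 0.224 to 0.267. Between 99.1% and 99.4% of the tested genes lay above the background floor on each of the 6 arrays. Levels are compared within a gene only, since different probe sets respond differently to the same amount of RNA.

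Before single genes are considered, the place of both groups among the 30 arrays matters. Arrays of the E9591 and the DMSO group at 15 h differed by an SD of 1.84 over the genes, as a mean of 9 array pairs. The E9591 arrays lay nearer to every 4 h group than to these controls. Their nearest group was the cultures treated with LMT for 4 h, at an SD of 0.454, followed by E9591 at 4 h at 0.803 and by the DMSO cultures of the LMT 4 h experiment at 0.892. The DMSO arrays at 15 h lay far from all 4 h groups, with mean SDs from 1.79 to 2.04, and nearest to LMT at 15 h, at 1.35. So the 15 h controls stand apart from every other DMSO group, and the differences below are differences from those late controls. Many genes that separate the groups have known ties to the state of the culture. For some of them, levels in the 4 h DMSO cultures of the E9591 experiment are therefore given beside the results. No gene on the array reports which compound a culture received, so the labels of the E9591 arrays cannot be checked from expression. The part that culture density or carbon supply had in the differences was not tested.

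**Figure D1:**
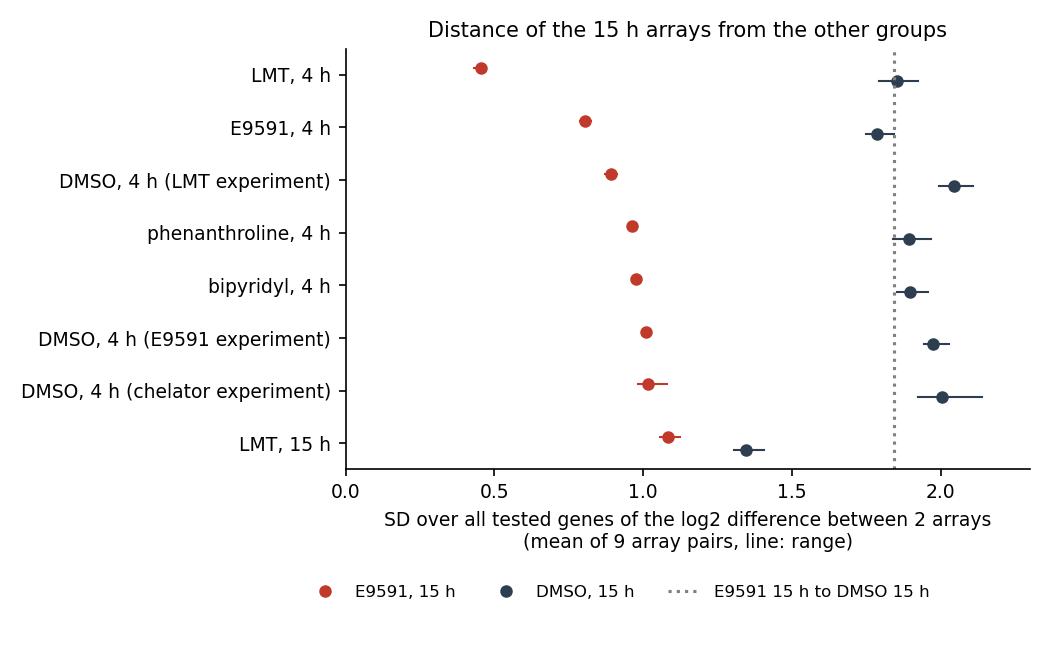
Distance of the E9591 arrays at 15 h (red) and the DMSO arrays at 15 h (dark) from each other group, as the SD over 5429 genes of the log2 difference between an array of one group and an array of the other. Points are means over 9 array pairs, lines their range, and the dotted line marks the mean distance between both 15 h groups, 1.84. The red points lie between 0.454 and 1.08, while all dark points except that for LMT at 15 h (1.35) lie between 1.79 and 2.04.

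Most of the transcriptome differed. Of the 5429 genes, 4770 were called (87.9%), 2481 of them higher with E9591 (45.7%) and 2289 lower (42.2%). All 3 E9591 arrays lay above all 3 DMSO arrays for 2477 genes (45.6%) and below them for 2311 (42.6%). With so many calls, a call alone says little about a gene, so gene groups are described below mainly by the members that were called and changed at least 2-fold. Over all genes 2733 did so (50.3%), of which 1472 were higher (27.1%) and 1261 lower (23.2%). The median change over all genes was 0.05. With levels raised to the background floor, changes ran from -8.96 for SPG1 to 6.86 for AAH1. In RNA from whole cultures, fewer cells of a type and less RNA per cell cannot be told apart.

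Among the 12 largest rises were genes that serve growth on glucose. HXK2, the main hexokinase of cells growing on glucose, was at 13.54, 13.29 and 13.61 on the E9591 arrays and at 7.66, 7.68 and 7.47 on the DMSO arrays. The groups were far apart, the change was 5.87 ± 0.13 (adjusted p = 1.28e-22), and the 4 h DMSO arrays, at 13.75, 13.74 and 13.82, were near the E9591 level. HXT1, a low-affinity glucose transporter, was at 13.31, 13.28 and 13.29 with E9591 and at 7.63, 7.66 and 7.31 with DMSO, a change of 5.76 ± 0.09 (adjusted p = 6.1e-25). PFK27, the kinase that makes an activator of glycolysis, rose by 6.27 ± 0.12 and MIG2, a repressor that acts when glucose is present, by 6.19 ± 0.15. For HXT1, PFK27 and MIG2 all 3 E9591 arrays lay above all 12 DMSO arrays of the series, at 4 h and at 15 h.

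Others of the 12 serve nucleotides, translation or amino acids. YBR238C, which encodes a mitochondrial membrane protein, was at 10.34, 10.54 and 10.23 with E9591 against 2.09, 2.93 and 4.35 with DMSO (adjusted p = 2.41e-17). Its fitted change of 7.25 ± 0.29 depends on the floor, since 2 of the 3 DMSO arrays were below background. With levels raised to the floor the change was 6.35, below that of AAH1. The 4 h DMSO arrays were at 9.54, 9.52 and 9.23. AAH1, the adenine deaminase that is turned off in resting cells, stood at 13.18, 13.14 and 13.12 against 6.61, 6.24 and 6.01, a change of 6.86 ± 0.10 (adjusted p = 1.42e-25). ANB1, a form of a translation factor made at low oxygen or low heme, rose by 5.81 ± 0.07. CHA1, which breaks down serine and threonine, was at 11.47, 11.58 and 11.60 against 5.53, 6.54 and 6.16, a change of 5.47 ± 0.16 (adjusted p = 2.46e-20). CHA1 was also low in the 4 h DMSO cultures, at 7.94, 8.16 and 8.05, and in E9591 at 4 h, at 8.10, 8.08 and 8.10, so its high level was seen with E9591 at 15 h and not at 4 h. The rest of the 12 were YBL081W (6.28), LSO1 (5.35, described with the iron genes), INA1 (5.29) and YMR230W-A. The last did not reach background on any DMSO array and was at least 7.0-fold higher with E9591.

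Several of the 12 largest falls were of genes known from resting cells, stress and the use of fats, acetate and ethanol. SPG1, a gene of stationary phase, was at 4.41, 5.15 and 4.86 with E9591 and at 13.53, 14.18 and 13.60 with DMSO, a change of -8.96 ± 0.25 (adjusted p = 1.79e-20). POT1, the peroxisomal thiolase of fatty acid breakdown, was at 5.13, 5.26 and 4.45 against 13.57, 13.25 and 13.53, a change of -8.50 ± 0.28 (adjusted p = 2.73e-19). In both genes the E9591 arrays and the 4 h DMSO arrays were near background and the 15 h DMSO arrays were high. SIP18 and GRE1, hydrophilins that rise on drying and osmotic stress, changed by -8.26 ± 0.39 and -7.47 ± 0.20. ADY2, an acetate transporter, changed by -8.09 ± 0.31, and MLS1, the malate synthase of the glyoxylate cycle, by -7.73 ± 0.43. The others were SHH3 (-8.16), PHM7 (-7.96), YKL107W (-7.92), MBR1 (-7.60), PEX18 (-7.48), a factor of protein import into peroxisomes, and RGI2 (-7.42), a gene of respiratory growth.

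**Figure D2:**
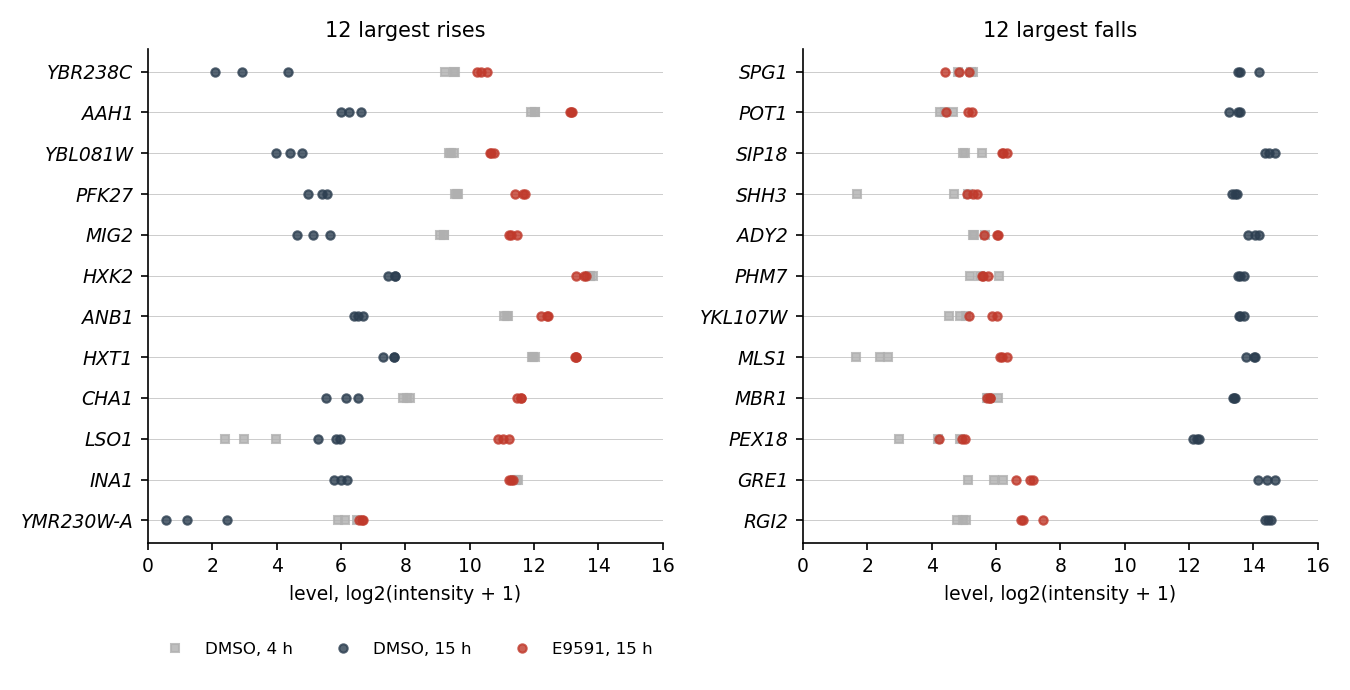
Levels, log2(intensity + 1), of the 12 genes with the largest rises (left) and the 12 with the largest falls (right) on every array of the E9591 15 h group (red circles), the DMSO 15 h group (dark circles) and the DMSO 4 h group of the E9591 experiment (grey squares). Red and dark points never overlap, and the grey squares lie nearer to the red than to the dark points for all genes shown except CHA1 and LSO1.

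Genes for carbon sources other than glucose were lower as a group. All 14 genes of gluconeogenesis and the glyoxylate cycle were called lower and at least 2-fold lower, with a median change of -4.29 against 0.05 over all genes. FBP1, the fructose bisphosphatase of gluconeogenesis, was at 6.25, 6.12 and 6.15 with E9591 and at 13.43, 13.43 and 13.82 with DMSO, a change of -7.38 ± 0.33 (adjusted p = 1.26e-16). ICL1, the isocitrate lyase of the glyoxylate cycle, changed by -4.59 ± 0.11, PCK1, which makes phosphoenolpyruvate, by -3.93 ± 0.12, and ADR1, an activator of ethanol and fat use, by -3.19 ± 0.24. Within the carnitine shuttle and peroxisomal beta-oxidation, 16 of 17 genes were called lower and 14 by at least 2-fold, with a median of -3.23. PIP2, an activator of peroxisomal genes, was the exception, with a change of 0.25 that was not called. At 4 h the median changes of these lists had the opposite sign, 1.12 and 0.89, against 0.09 over all genes.

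Genes of respiration were lower as well. Of 25 genes of the respiratory chain, 24 were called and at least 2-fold lower, with a median of -2.63. SDH1, the flavoprotein subunit of succinate dehydrogenase, was at 8.35, 8.31 and 8.50 with E9591 and at 13.43, 13.33 and 13.41 with DMSO, a change of -5.00 ± 0.12 (adjusted p = 3.73e-22). These E9591 levels were also below those of the 4 h DMSO arrays, at 10.42, 10.37 and 10.39. For 7 of the 25, all 3 E9591 arrays lay below all 12 DMSO arrays of the series, against 9.8% of all genes. Among these 7 were CYC1, the main cytochrome c (-2.63 ± 0.12), RIP1, the Rieske iron-sulfur subunit (-3.58 ± 0.10), and COX4, a cytochrome oxidase subunit (-3.78 ± 0.08). The one gene of the list that rose was NDE1, an external NADH dehydrogenase, by 1.10 ± 0.09, while its paralog NDE2 changed by -6.16 ± 0.20. All 14 subunit genes of the ATP synthase were called lower, 10 by at least 2-fold, with a median of -1.44. In the tricarboxylic acid cycle 13 of 16 genes were called lower and 2 higher. The 2 that rose were IDH1 (1.51 ± 0.06) and IDH2 (1.61), the subunits of the isocitrate dehydrogenase that feeds glutamate synthesis, and for both the E9591 arrays lay above all 12 DMSO arrays.

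Glycolysis and sugar uptake moved the other way in part. Of 16 genes of glycolysis and ethanol formation, 10 were called higher, 9 of them at least 2-fold, 2 were called lower and 4 were not called, with a median of 1.12. PDC5, a pyruvate decarboxylase that is usually low while PDC1 is active, was at 14.05, 13.86 and 14.14 with E9591 and at 9.20, 8.65 and 8.88 with DMSO, a change of 5.11 ± 0.15 (adjusted p = 2.09e-20). No DMSO array of the series reached its E9591 levels: the highest of the 12 was at 10.54, and E9591 at 4 h was at 10.18, 10.13 and 10.36. PDC1 itself changed by 0.26, which was not called. Of 16 genes of hexose transporters and glucose sensors 5 were called higher and 7 lower, beside 45.7% and 42.2% of all genes. The transporters HXT3 and HXT2 rose by 4.78 ± 0.12 and 4.29 ± 0.10. HXT5, which is made in slow-growing cells, changed by -3.68 ± 0.14. Its E9591 levels of 10.59, 10.38 and 10.34 lay below the DMSO levels at 15 h (14.22, 14.03 and 14.10) and above those at 4 h (6.69, 6.89 and 6.74).

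Stress and storage genes were low with E9591 relative to the late controls. Of 22 general stress and stationary-phase genes, 20 were called and at least 2-fold lower, with a median of -4.15. CTT1, the cytosolic catalase, was at 6.55, 6.28 and 6.88 with E9591 and at 13.90, 13.81 and 14.07 with DMSO, a change of -7.36 ± 0.13 (adjusted p = 1.53e-24). HSP12, a membrane-protecting stress protein, behaved differently in size. Its E9591 levels of 12.64, 12.55 and 12.90 lay below DMSO at 15 h (14.58, 14.34 and 14.54, a change of -1.79 ± 0.22) but far above DMSO at 4 h (8.50, 8.16 and 8.62). The 2 members that rose, SNO1 (3.13 ± 0.10) and SNZ1 (0.36), belong to vitamin B6 synthesis. All 16 trehalose and glycogen genes were called lower, 15 by at least 2-fold, with a median of -3.11. They included GDB1, the glycogen debranching enzyme (-4.27 ± 0.18), and GSY2, the main glycogen synthase (-3.89 ± 0.20). In autophagy 27 of 34 genes were called lower, 26 by at least 2-fold, and 2 were called higher. ATG8, which coats the forming autophagosome, changed by -3.39 ± 0.11. ATG1, the kinase that starts the process, was 1 of the 2 that rose, by 0.62.

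Summed over their genes, the stress list had an intensity of 45446 to 54081 on the E9591 arrays and 321601 to 356682 on the DMSO arrays at 15 h, beside 19032 to 20216 on the 4 h DMSO arrays. The gluconeogenesis list summed to 9918 to 10721 with E9591, 148411 to 174152 with DMSO at 15 h and 8147 to 8388 with DMSO at 4 h. On the trehalose and glycogen list the E9591 arrays, at 17547 to 22371, were below both the 15 h controls (113540 to 122056) and the 4 h controls (38674 to 45274). Thus on 2 of these 3 lists the E9591 sums lay between the early and the late controls, and on the storage list below both.

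Genes of cytosolic ribosomes and of their assembly were higher with E9591. All 127 cytosolic ribosomal protein genes were called higher and 125 of them rose at least 2-fold, with a median of 2.77 and a range from 0.37 to 4.69. RPL13A, a protein of the large subunit, was at 13.57, 13.48 and 13.68 with E9591 and at 8.47, 9.0 and 9.19 with DMSO, a change of 4.69 ± 0.13 (adjusted p = 2.41e-20). The 4 h DMSO arrays were slightly higher still, at 13.94, 13.90 and 13.91. Only 3 of the 127 lay above all 12 DMSO arrays with E9591, against 16.4% of all genes. All 56 ribosome assembly factors were called higher too, 50 by at least 2-fold, with a median of 2.38, and 15 of them lay above all 12 DMSO arrays. Of the mitochondrial ribosomal proteins, 16 of 66 were called higher and 35 lower, with a median of -0.28. Of 34 proteasome genes 31 were called lower, but only 4 by at least 2-fold, with a median of -0.43.

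Genes of amino acid synthesis were broadly higher with E9591 than in the 15 h controls. In the synthesis of leucine, isoleucine and valine 11 of 13 genes were called and at least 2-fold higher, and none lower, with a median of 3.22. OAC1, a mitochondrial carrier that exports the leucine precursor, was at 13.70, 13.54 and 13.76 with E9591 and at 8.89, 8.79 and 8.79 with DMSO, a change of 4.84 ± 0.06 (adjusted p = 6.2e-27), and it lay above all 12 DMSO arrays. BAT1, the mitochondrial transaminase of the pathway, rose by 4.65 ± 0.10. For lysine 8 of 9 genes were called higher (median 2.99), for arginine 7 of 8 (2.48), for histidine and tryptophan with their regulator GCN4 12 of 12 (2.65, where the call of GCN4 was lost without E9591 array C or DMSO array B), and for sulfate and methionine 13 of 18 (1.80). None of these lists held a gene called lower. The 15 h controls were low on them. Their median difference from the 4 h DMSO arrays was -3.18 for the leucine list, -3.20 for lysine and -1.38 for arginine. It was -2.42 for histidine and tryptophan and -2.06 for sulfate and methionine. In the same order, 3 of 13, 2 of 9, 6 of 8, 6 of 12 and 2 of 18 genes lay above all 12 DMSO arrays with E9591. Over all genes this share was 16.4%, so the leucine, lysine and sulfate lists stood near it. LYS1, the last enzyme of lysine synthesis, rose by 4.38 ± 0.05, HIS1, the first of histidine synthesis, by 4.32 ± 0.10, ARG1, an argininosuccinate synthase, by 3.38 ± 0.14 and MET3, the ATP sulfurylase, by 3.87 ± 0.09.

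Of 22 nitrogen genes 11 were called higher and 10 lower, shares near those of all genes (45.7% and 42.2%). The allantoin genes DAL1 (3.56 ± 0.19), DAL7 (3.38), DAL4 (3.21), DAL5 (2.57) and DAL3 (1.80) rose and lay above all 12 DMSO arrays. The largest change of the list was a fall, that of PUT4 (-4.64). Of the 22 genes 9 were at least 2-fold higher and 6 lower, against 27.1% and 23.2% of all genes. PUT1, which begins the breakdown of proline, changed by -1.94 ± 0.16, from 13.45, 13.41 and 13.36 with DMSO to 11.52, 11.62 and 11.25 with E9591. Both 15 h groups were far above the 4 h DMSO arrays, at 7.31, 6.73 and 7.18. Of 15 amino acid permeases 11 were called higher, 9 of them at least 2-fold, and 9 lay above all 12 DMSO arrays. Over all genes these shares were 45.7%, 27.1% and 16.4%. The other 4 permeases were called lower, 3 of them at least 2-fold, including AGP3 (-2.05).

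**Figure D3:**
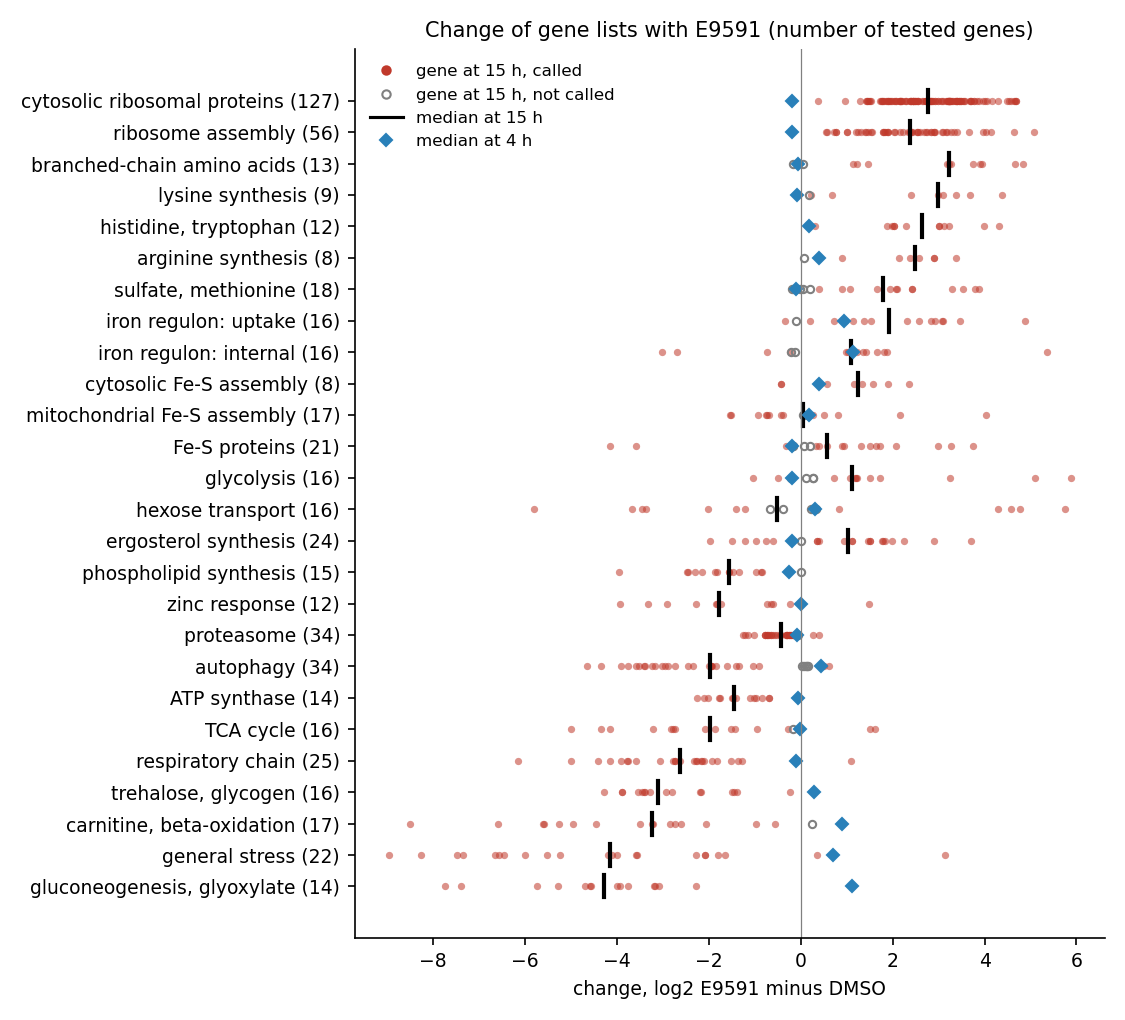
Change with E9591 at 15 h (log2 E9591 minus DMSO) of every tested gene in 26 gene lists, with the number of genes in brackets. Filled red points are called genes and open points genes not called, black bars are list medians at 15 h, and blue diamonds are list medians at 4 h, each against its own DMSO arrays. Medians at 15 h run from -4.29 for gluconeogenesis to 3.22 for branched-chain amino acids, while the 4 h medians lie between -0.25 and 1.14.

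The iron regulon was described in its uptake and its internal branch, without a test of either branch as a set. Of 16 genes for capture, reduction and import of iron at the cell surface, 14 were called higher, 11 of them at least 2-fold, and 1 was called lower, with a median change of 1.93. FIT1, a cell wall mannoprotein that holds iron carriers, was at 13.68, 13.52 and 13.66 with E9591 and at 8.90, 8.68 and 8.66 with DMSO, a change of 4.87 ± 0.07 (adjusted p = 2.44e-25). The surface ferric reductases FRE2 and FRE3 rose by 3.07 ± 0.07 and 2.83 ± 0.08. FRE2 was at 11.48, 11.45 and 11.40 against 8.43, 8.40 and 8.29, and FRE3 at 11.71, 11.70 and 11.61 against 8.83, 8.81 and 8.90. The highest of the 12 DMSO arrays of the series was at 9.99 for FIT1, 10.01 for FRE2 and 9.84 for FRE3, so none reached the E9591 levels. The siderophore transporters ARN1 (2.32), ENB1 (2.57) and ARN2 (1.37) rose as well.

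For the iron permease FTR1 and the reductase FRE4 the controls at 15 h were lower than those of the separate 4 h experiment. FTR1 was at 13.61, 13.40 and 13.54 with E9591 and at 10.13, 10.47 and 10.67 with DMSO at 15 h, a change of 3.09 ± 0.10, but DMSO at 4 h was at 12.98, 13.00 and 12.94. FRE4 was at 9.47, 9.64 and 9.45 against 6.14, 6.02 and 6.0, a change of 3.47 ± 0.13, and its 4 h DMSO arrays were at 8.65, 8.28 and 8.60. FET3, the copper-containing oxidase that works with FTR1, rose by 0.95 ± 0.12, to 13.79, 13.45 and 13.94. FIT2 (0.20), SIT1 (-0.10, not called) and FIT3 (-0.33) were already high in the 15 h controls. The calls of FIT2 and FIT3 were lost when single E9591 arrays were left out.

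Within the cell, 10 of 16 genes for the movement, recycling and saving of iron were called higher, 9 of them at least 2-fold, and 4 were called lower, with a median of 1.09. LSO1, a small protein gene known for its strong response to iron depletion, was at 11.23, 11.04 and 10.88 with E9591 and at 5.85, 5.29 and 5.96 with DMSO, a change of 5.35 ± 0.42 (adjusted p = 1.51e-11). Its 12 DMSO arrays ranged from 0.75 to 5.96, so every E9591 array stood far above all of them. CCC2, which loads copper into FET3, rose by 1.87 ± 0.08, HMX1, the heme oxygenase, by 1.14, MRS4, a mitochondrial iron carrier, by 1.22 and FTH1, which exports iron from the vacuole, by 1.36. ECM4 (-3.01 ± 0.11), BNA2 (-2.69 ± 0.11), ISU1 (-0.73) and TIS11 (-0.24), which encodes the messenger-binding protein Cth2 and was not called when only the arrays of the compared groups were fitted, were lower than in the 15 h controls. ECM4 stood at 13.48, 13.35 and 13.28 in those controls, against 9.39, 9.45 and 9.47 with DMSO at 4 h, with E9591 at 10.32, 10.43 and 10.32.

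Over both branches together 19 of 32 genes lay above all 12 DMSO arrays with E9591, against 16.4% of all genes, and the E9591 15 h arrays lay below all 12 for none. The regulators themselves rose modestly: AFT2 by 1.69 ± 0.10, to 11.23, 11.27 and 10.96 from 9.45, 9.57 and 9.38, and AFT1 by 1.00 ± 0.07, to 11.23, 11.16 and 11.17 from 10.36, 10.01 and 10.18.

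**Figure D4:**
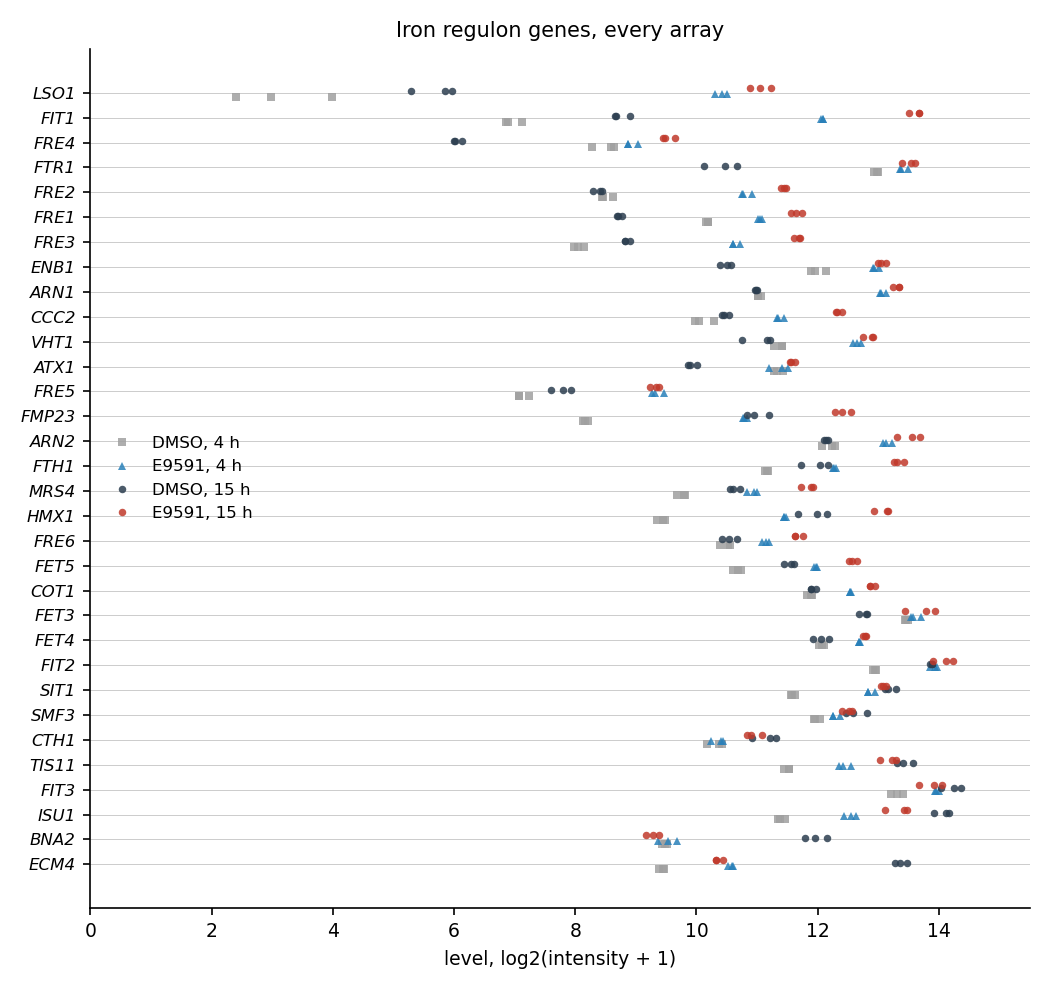
Levels, log2(intensity + 1), of the 32 tested iron regulon genes on every array of 4 groups: DMSO at 4 h (grey squares), E9591 at 4 h (blue triangles), DMSO at 15 h (dark circles) and E9591 at 15 h (red circles), ordered by the change at 15 h. For LSO1, FIT1, FRE2 and FRE3 both E9591 groups stand far to the right of both DMSO groups, whereas for ECM4 and BNA2 the DMSO 15 h arrays are the ones that stand apart.

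Genes that make or carry iron-sulfur clusters did not move as one. Of 8 genes for cytosolic cluster assembly 6 were called higher, 5 by at least 2-fold, and 2 lower, with a median of 1.24. They included TAH18, a reductase that gives electrons to the pathway (2.35 ± 0.14), and CIA2, which targets clusters to client proteins (1.89 ± 0.07). CIA2 was at 12.25, 12.12 and 12.30 with E9591 and at 10.24, 10.34 and 10.42 with DMSO, and no DMSO array of the series was above 10.42. In mitochondrial assembly 6 of 17 were called higher and 8 lower, beside 45.7% and 42.2% of all genes, with a median of 0.05. ISU2, one of the scaffolds on which clusters form, rose by 4.04 ± 0.07, from 9.44, 9.34 and 9.47 to 13.44, 13.37 and 13.56, while its paralog ISU1 fell. YAH1, the mitochondrial ferredoxin, rose by 2.15 ± 0.08, and GRX5, a glutaredoxin of the pathway, changed by -1.54.

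Among 21 genes of cluster-carrying proteins 13 were called higher and 4 lower, with a median of 0.57. The amino acid enzymes ILV3 (3.75 ± 0.09), LEU1 (3.28 ± 0.08), LYS4 (2.99 ± 0.08) and MET5 (2.07) rose, each from a low level in the 15 h controls. LEU1, the isopropylmalate isomerase, was at 13.40, 13.39 and 13.25 with E9591, 10.07, 10.03 and 10.10 with DMSO at 15 h, and 13.22, 13.27 and 13.23 with DMSO at 4 h. The respiratory proteins SDH2 (-4.15 ± 0.13) and RIP1 (-3.58 ± 0.10) fell. RIP1 was at 9.81, 9.79 and 9.85 with E9591, below DMSO both at 15 h (13.35, 13.43 and 13.43) and at 4 h (10.80, 10.70 and 10.74). ACO1, the aconitase, changed by -0.17, which was not called. Of 10 messages known to be bound by Cth2, 8 were called and at least 2-fold lower and 1 was called higher, with a median of -2.85. The 15 h controls were high on this list, with a median difference of 2.19 from the 4 h DMSO arrays. At 4 h the median change with E9591 was -0.19. With E9591 at 15 h, 3 of the 10 lay below all 12 DMSO arrays, against 9.8% of all genes. Most of the 8 are respiratory genes already counted above. HEM15, the ferrochelatase that puts iron into heme, is another, and changed by -2.91 ± 0.09, to levels of 9.79, 9.54 and 9.91 that lay below all 12 DMSO arrays (lowest 11.39).

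Other metals also differed. Of 12 zinc-response genes 11 were called lower, 7 by at least 2-fold, with a median of -1.77. ZAP1, the zinc-sensing activator, was at 8.91, 8.86 and 8.33 with E9591 and at 12.54, 12.73 and 12.65 with DMSO, a change of -3.94 ± 0.11. The zinc transporter ZRT2 (-2.29 ± 0.06) and the alcohol dehydrogenase ADH4 (-2.91 ± 0.09) fell below all 12 DMSO arrays. For copper 7 of 11 genes were called lower and 3 higher, beside 42.2% and 45.7% of all genes. The copper importers CTR1 (-1.89 ± 0.14) and CTR3 (-0.86) lay below all 12 DMSO arrays, while CTR2 of the same list rose by 1.36. On the copper list 2 genes lay below all 12 DMSO arrays and 2 above, against 9.8% and 16.4% of all genes.

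Relative to the 15 h controls, phospholipid and ergosterol genes went in opposite directions. Of 15 genes of phospholipid synthesis and breakdown 14 were called lower, 11 by at least 2-fold, with a median of -1.57. With E9591, 7 of the 15 lay below all 12 DMSO arrays, against 9.8% of all genes. INO1, which makes inositol, was at 10.08, 10.21 and 10.23 with E9591 and at 14.14, 14.06 and 14.16 with DMSO, a change of -3.95 ± 0.17. CHO2, a methyltransferase that makes phosphatidylcholine, was at 10.67, 10.79 and 10.78 against 13.11, 13.27 and 13.28, a change of -2.47 ± 0.08, and the lowest of the 12 DMSO arrays was at 12.51. In ergosterol synthesis 16 of 24 genes were called higher, 12 by at least 2-fold, and 7 lower, with a median of 1.03. Only 1 of the 24 lay above all 12 DMSO arrays with E9591, and 6 lay below them, against 16.4% and 9.8% of all genes. The median difference of the 15 h from the 4 h DMSO arrays was -1.48 on the ergosterol list. ERG4, the last enzyme of the pathway, rose by 3.71 ± 0.05, whereas ERG24, a sterol reductase, changed by -1.49 ± 0.06 to levels below all 12 DMSO arrays.

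Of 22 genes of low oxygen or low heme 12 were called higher and 7 lower, beside 45.7% and 42.2% of all genes. CYC7, the second cytochrome c, changed by -4.10 ± 0.32, and HEM13, an oxygen-dependent enzyme of heme synthesis that is raised at low heme, rose by 2.12 ± 0.09. Its E9591 levels of 10.22, 10.34 and 10.30 remained below DMSO at 4 h (11.93, 11.75 and 11.82). Of 20 genes for efflux pumps and their regulators 8 were called higher and 11 lower, beside the same shares of all genes. AQR1 (4.88 ± 0.13) and QDR2 (3.91 ± 0.08), exporters of the plasma membrane, rose above all 12 DMSO arrays, while PDR5, the main multidrug pump, rose by 0.55. RSB1 (-3.69) and PDR15 (-3.08) of the same list fell. On the list 8 genes were at least 2-fold lower and 4 higher, against 23.2% and 27.1% of all genes. Its median change was -0.32.

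Markers of mating type and of meiosis were followed across the groups, since the labelled strain is of mating type alpha. The 5 genes of alpha cells summed to an intensity of 12089 to 14091 with E9591 and 5015 to 5821 with DMSO at 15 h, beside 50788 to 52668 with DMSO at 4 h. STE3, the receptor of alpha cells, rose by 2.40 ± 0.09. Genes of a cells are normally silent in alpha cells. Their 7 genes summed to 2768 to 3713 with E9591 and 1655 to 1746 with DMSO at 15 h, and these sums cannot be set against those of the alpha genes, which have other probe sets. Of the 7, 6 were called higher and 1 lower. AGA2, an adhesion protein of a cells, was at 8.51, 8.51 and 8.97 against 6.24, 6.64 and 6.38, a change of 2.25 ± 0.14, and at 4 h it had risen by 2.94 ± 0.14. What part mating-type genes have in other results was not tested. Of 14 genes of meiosis and spore formation 9 were called lower, 8 by at least 2-fold against 23.2% of all genes, 1 was called higher and 4 were not called. SPS100, a spore wall gene, was at 14.27, 14.01 and 14.19 in the 15 h controls and at 7.32, 7.39 and 7.61 with E9591.

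In the list for entry into the cycle and DNA replication 12 of 17 were called higher and 3 lower, with 7 at least 2-fold higher, against 27.1% of all genes. In the mitotic list 8 of 9 were called higher, 4 by at least 2-fold. CLB2, the main mitotic cyclin, was at 7.08, 7.18 and 7.09 with E9591, 4.34, 4.87 and 4.01 with DMSO at 15 h, and 9.19, 9.17 and 8.94 with DMSO at 4 h. RNR1, the large subunit of ribonucleotide reductase, rose by 3.28 ± 0.11, to 9.53, 9.38 and 9.71, and was likewise below its 4 h DMSO levels of 12.38, 12.40 and 12.34. In both genes the E9591 arrays thus lay between the late and the early controls.

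The effect of E9591 at 15 h was next set against its effect at 4 h, where each time has its own DMSO cultures. At 4 h 2350 genes were called (43.3%), 1736 higher (32%) and 614 lower (11.3%). The difference between both effects, tested in the same fit, was called for 4594 genes (84.6%), with 2155 higher at 15 h (39.7%) and 2439 lower (44.9%). These p-values leave out variation between experiments. Over the 5429 genes the changes at both times had a Pearson r of -0.20 and a Spearman rho of -0.28, a description across genes, which are not independent replicates.

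Of the 233 genes called and at least 2-fold higher at 4 h (4.29%), 80 were called and at least 2-fold higher at 15 h as well, 90 were at least 2-fold lower and 27 were not called. Their median change at 15 h was -0.05. Of the 32 iron regulon genes, 16 were called and at least 2-fold higher at 4 h, and 13 of these 16 were so at 15 h too. FIT1 rose by 5.12 ± 0.07 at 4 h and 4.87 ± 0.07 at 15 h, and FRE3 by 2.58 ± 0.08 and 2.83 ± 0.08, a difference that was not called (adjusted p = 0.0564). LSO1 had a fitted rise of 7.29 ± 0.42 at 4 h, but its 4 h controls were below background, which makes it at least 41.5-fold higher there. The difference of -1.93 between both times for LSO1 shrank to -0.03 when levels were raised to the background floor. FTR1 changed more at 15 h (difference 2.66 ± 0.14, adjusted p = 1.4e-14), with the lower control level given above.

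MLS1 and NDE2, named for the size of their difference, were called higher at 4 h and lower at 15 h. MLS1 was below background on the 4 h DMSO arrays and at 7.14, 7.16 and 6.91 with E9591 at 4 h, so at least 4.11-fold higher. At 15 h it was at 6.35, 6.11 and 6.18 with E9591, all below the 4 h arrays, and at 14.05, 13.76 and 14.02 with DMSO. NDE2 was at 5.36, 4.21 and 4.52 with DMSO and 7.66, 7.58 and 7.55 with E9591 at 4 h, then 13.92, 13.75 and 13.76 with DMSO and 7.79, 7.52 and 7.65 with E9591 at 15 h. Between the times, the E9591 level of MLS1 differed by -0.86 ± 0.43 (limma, adjusted p = 0.0761) and that of NDE2 by 0.06 ± 0.20 (adjusted p = 0.812), far less than the control levels.

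**Figure D5:**
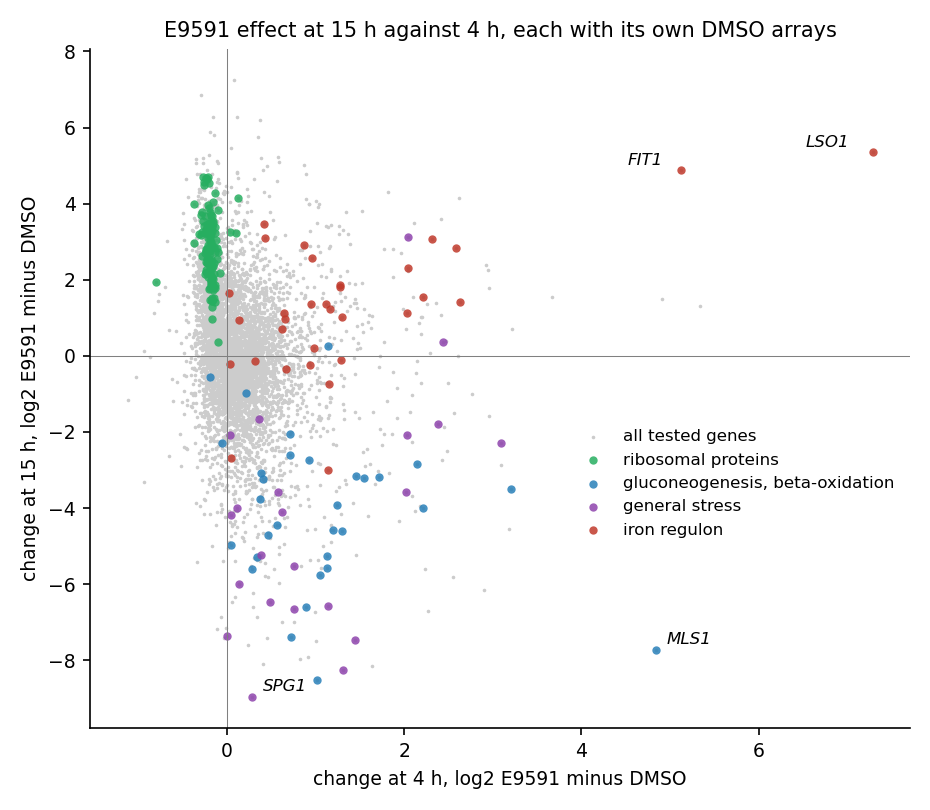
Change with E9591 at 15 h (vertical axis) against the change at 4 h (horizontal axis) for 5429 genes, both in log2 units and each against its own DMSO arrays, with 4 sets of listed genes in colour. LSO1 and FIT1 lie at the upper right, raised at both times, the ribosomal proteins lie near 0 at 4 h and high at 15 h, and MLS1 lies at the lower right.

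LMT was measured at 15 h against the same 3 DMSO arrays and at its own dose, so its changes are set beside those of E9591 without a comparison. HXK2 changed by 5.87 with E9591 and 5.74 with LMT, FBP1 by -7.38 and -7.38, and RPL13A by 4.69 and 4.05. HXT1 changed by 5.76 with E9591 and -0.16 with LMT, LSO1 by 5.35 and 0.10, FIT1 by 4.87 and 1.59, and PDC5 by 5.11 and 1.54. Over the uptake branch of the iron regulon the median change was 1.93 with E9591 and 0.60 with LMT, and over the internal branch 1.09 and -0.03. By group means, 1473 genes (27.1%) were at least 2-fold apart between E9591 and LMT at 15 h. Between E9591 at 15 h and LMT at 4 h, its nearest group, 166 genes (3.06%) were. LMT levels at 4 h are not given for the genes above, so these differences are not shown to be particular to E9591.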

How the data were processed

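In the table the authors deposited, each of 30 arrays has an intensity, linear and of 1 colour, for 10928 probe sets. How probes were summarised and background removed, and by which software, is not given in the sources used here. Each array's 2% trimmed mean is close to 1000, the mark of scaling to one target, which assumes equal total signal. Per the labels' protocols, biotinylated cRNA came from total RNA and each culture had its own array.

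A platform annotation paired 5498 probe sets with 1 S. cerevisiae gene (5449 genes). Of the rest, 1746 belong to another species, 1 has several genes and 3683 are unnamed. The brightest probe set was kept for 47 genes, and 12 symbols were updated. The floor was the 95th percentile of the other-species probe sets on each array, and 5429 genes above it on at least 3 arrays were tested (20 were not). For 113 of them, related genes can bind to the probe set.

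On log2(intensity + 1), limma 3.58.1 (R 4.3.3) estimated group means from all 30 arrays together, which left 20 residual degrees of freedom. All p-values are two-sided. The added 1 lies below the floor, so a change that rests on a group below background on all 3 arrays is given as a bound, "at least N-fold", against the floor. Only 3 arrays per group limit the precision. The fit was tested on simulated data. Named genes were the 12 largest rises and falls among called genes whose groups did not overlap, the 6 largest differences between times in each direction, and members of gene lists. Members and lists were chosen with earlier results of these data known. Genes set against all 12 DMSO arrays of the series are described without a test. Alternatives covered the normalization, the pseudocount, the filter, the arrays fitted, a replicate block, array weights and leaving out single replicates. The main fit did not pair cultures by replicate letter. Same-letter E9591 and DMSO arrays deviated together with correlations of 0.04, 0.19 and 0.05. For 2 of the 3 DMSO arrays the best match was the E9591 array of their own letter.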

Additional observations from a re-analysis of the deposited data

Results flagged for a closer look

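The effect of E9591 differed between 15 h and 4 h, by the interaction term of the fit, most of all for the genes named here. The difference, in log2 units as the 15 h effect minus the 4 h effect, was positive for YBR238C (7.17 ± 0.42), AAH1 (7.15 ± 0.14), YBL081W (6.43 ± 0.19), PFK27 (6.16 ± 0.16), HXK2 (6.07 ± 0.18) and ANB1 (5.96 ± 0.10). For 5 of these 6 genes, all but AAH1 (-0.29, adjusted p = 0.0249), the change at 4 h was not called by limma, and DMSO levels at 15 h lay far below those at 4 h. With levels raised to the background floor, the difference of YBR238C was 6.27.

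Negative differences were largest for MLS1 (-12.57 ± 0.61), SHH3 (-9.79 ± 0.96), SIP18 (-9.57 ± 0.55), POT1 (-9.52 ± 0.39), SPG1 (-9.25 ± 0.36) and NDE2 (-9.06 ± 0.28). Several 4 h control values of these genes lay below background, and with levels raised to the floor the differences were -9.77 for MLS1, -8.56 for SHH3, -9.57 for SIP18, -8.94 for POT1, -9.21 for SPG1 and -8.60 for NDE2. In all 12 genes the 3 DMSO arrays at 15 h lay apart from the 3 at 4 h. Both times were run as separate experiments, so time and experiment cannot be told apart.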

How the results depend on the processing

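The number of genes called higher with E9591 at 15 h, 2481 in the report, ranged from 2377 to 2512 over the alternatives, and the number called lower, 2289, from 2248 to 2449. Genes at least 2-fold higher ranged from 1383 to 1490 and at least 2-fold lower from 1205 to 1365. Genes whose effect differed between times, 4594, ranged from 4511 to 4703. With the replicate block, which treats same-letter cultures as belonging together, 2483 genes were called higher and 2296 lower. Leaving out 1 replicate at a time gave 2439 to 2468 higher and 2248 to 2269 lower. Quantile normalization moved the median change of all genes by -0.08 and centring on the median by -0.10, and 2731 of the 2733 calls of at least 2-fold kept their direction and call under both. Of 3621 values of named genes under the alternatives, 3600 kept direction and call and none changed sign. The calls of FIT2 (to 0.13 without E9591 array C, 0.18 without A, 0.11 when centred), FIT3 (-0.23 without E9591 array B), GCN4 (0.23 without E9591 array C, 0.27 without DMSO array B) and TIS11 were lost, and those of ACO1, PDC1, PIP2 and SIT1 were gained under some. Changes of genes near or below background are set by the floor and the added 1, and genes at the top of the range in both groups, such as FIT2, FIT3 and SIT1, may be compressed, which was not tested.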

Other observations

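Some genes outside the lists also stood above all 12 DMSO arrays of the series in the E9591 15 h group, and those given were chosen here after their values were seen. NCA3, tied to the making of the mitochondrial ATP synthase, was at 12.53, 12.46 and 12.27 with E9591, while the highest DMSO array was at 8.25, and its level with E9591 at 4 h was 8.28, 8.27 and 8.50. DUR3, a urea transporter of the plasma membrane, rose by 3.58 at 15 h and 2.42 at 4 h. FRM2 rose by 4.14 at 15 h and 2.61 at 4 h, and PCA1, a cadmium exporter, by 2.81 and 1.88.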
